A study of Mus musculus with 8 samples.

Results

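The genes described here are 33 genes of cardiac-type muscle, the striated muscle of the heart and of the sleeves that run along the pulmonary veins, measured in whole lungs of newborn mice. They were taken by name: every feature of the array that the platform annotation gives a member symbol was kept, which found all 33 genes, on 51 features, among 20842 named genes. The genes had been selected on the log2 differences between the 2 groups on these arrays, so those differences are given below as a description, with no p-value. The genes were sorted by role into 12 of the sarcomere, 5 of calcium handling, 9 that mark atrial or ventricular muscle or the pacemaker, 5 transcription factors and 2 of mitochondrial energy supply.

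RNA was read on 8 arrays with a single dye (Cy3), 1 for each lung. Of these, 4 came from pups labelled Fgf10 +/- (titled TG, replicates 1 to 4) and 4 from pups labelled wild-type (titled WT, replicates 1 to 4). All were of the C57Bl/6J background and spent postnatal days 0 to 3 in a chamber at 20% oxygen. By that label the pups would carry a single intact copy of Fgf10, which encodes a growth factor of lung mesenchyme that the epithelium needs to grow, and the comparison asks what that copy number changes in normal air. The labels describe the samples as independent. They do not say from which litters the pups came, or how much of the hilum, heart or chest wall stayed on each lung.

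In mice, myocardium is not confined to the heart: cardiomyocytes of an atrial kind ensheath the pulmonary veins and follow them into the lung. Contraction in these cells runs on the sarcomere, in which myosin heads pull on actin when calcium binds the troponin complex. Calcium is released from the sarcoplasmic reticulum by the ryanodine receptor and pumped back by SERCA2, which the small proteins phospholamban and sarcolipin restrain. Atrial and ventricular cells use different myosin light chains, so that Myl7 and Myl4 mark atrial muscle and Myl2 and Myl3 ventricular muscle. Newborn skeletal muscle shares many of these genes, so the members were also divided into 8 that are restricted to heart-type cells among striated muscles, 18 that skeletal muscle also uses, and 7 that are active outside muscle as well. In whole-lung RNA, fewer cardiac muscle cells and less RNA per cell cannot be told apart.

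The promoters of genes of this kind carry sites for factors of muscle and heart, and 4 are shown because the results turn on their genes: Actc1, Myl7 and Mybpc3, which had lower means together, and Nppa, which stayed near the floor of the array. Each line gives the 250 bases before the start of transcription in the RefSeq annotation (GRCm38.p6), read 5′ to 3′ along the gene's strand. Capitals mark the CArG box bound by SRF, the MEF2 site, GATAA or its complement (the GATA factors) and CATTCC or its complement (the TEAD factors). The windows are chr2:114052876-114053125 on the minus strand for Actc1, chr11:5898783-5899032 on the minus strand for Myl7, chr2:91117894-91118143 on the plus strand for Mybpc3 and chr4:148000472-148000721 on the plus strand for Nppa.
Actc1: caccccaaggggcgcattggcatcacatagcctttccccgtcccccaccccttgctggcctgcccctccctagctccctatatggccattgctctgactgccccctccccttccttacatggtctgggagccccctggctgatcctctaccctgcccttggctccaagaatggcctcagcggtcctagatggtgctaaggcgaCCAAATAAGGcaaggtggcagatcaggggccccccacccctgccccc
Myl7: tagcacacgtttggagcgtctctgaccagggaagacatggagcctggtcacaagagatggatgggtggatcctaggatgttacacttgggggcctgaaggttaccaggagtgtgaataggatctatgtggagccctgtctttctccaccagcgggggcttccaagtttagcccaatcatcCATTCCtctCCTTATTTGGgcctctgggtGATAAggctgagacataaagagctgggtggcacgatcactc
Mybpc3: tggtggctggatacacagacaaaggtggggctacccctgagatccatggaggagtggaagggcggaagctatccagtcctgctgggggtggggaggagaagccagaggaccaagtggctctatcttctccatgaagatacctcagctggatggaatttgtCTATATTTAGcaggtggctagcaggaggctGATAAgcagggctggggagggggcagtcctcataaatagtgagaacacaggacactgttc
Nppa: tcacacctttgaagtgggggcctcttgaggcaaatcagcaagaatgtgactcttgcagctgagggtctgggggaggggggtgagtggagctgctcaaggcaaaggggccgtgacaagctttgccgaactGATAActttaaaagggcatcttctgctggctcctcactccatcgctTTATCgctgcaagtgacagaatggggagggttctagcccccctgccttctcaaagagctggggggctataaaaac
A CArG box lay 47 bases before the start of Actc1 (the base nearest its 5′ end at -47) and at -61 in Myl7, where CATTCC at -70 and GATAA at -41 flank it. Mybpc3 had a MEF2 site at -90 and GATAA at -60, and Nppa had GATAA at -121 and, on the other strand, at -75.

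The table held 33 windows for 29 members and none for Cox6a2, Atp2a2, Sln and Gata4. Searched on both strands, a CArG box was found in 3 of the 33 windows (9.09%: Actc1, Myl3 and Myl7) against 482 of all 32851 windows (1.47%). A MEF2 site was found in 4 (12.1%: Casq2, Mybpc3, Myoz2 and Ttn) against 2.92% of all windows, GATAA in 11 (33.3%) against 22.6%, and CATTCC in 8 (24.2%) against 12.6%. No match overlapped a match of another motif. These matches describe letters in a short window and were not tested as binding sites.

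The targeted gene comes before the members, since it checks the labels. Fgf10 had a log2 signal of 7.95 ± 0.32 in the libraries labelled Fgf10+/- and 7.46 ± 0.40 in those labelled wild type (SD, n = 4 each), so it was not lower where a copy is labelled as disrupted. All 10 of its features had a higher mean in Fgf10+/-, by 0.07 to 0.49, and these values are of the brightest. The difference of 0.49, which was 0.31 over the mean of all features and 0.30 without wild-type replicate 3, did not reach the threshold (limma adjusted p = 0.507; p = 0.0857 in a two-sided exact permutation test, which over 70 assignments can give no less than 0.0286). The labels do not say whether its features lie in the disrupted part, so every direction below rests on the labels. Lung markers were bright on all arrays: Sftpc averaged 15.98 and Scgb1a1 15.94, both at the top of the scale. Wild-type replicate 4 stood apart. Its mean log2 deviation (signal minus the gene's mean over 8 arrays) was 2.84 for 22 skeletal muscle genes, 3.04 for 8 cartilage genes and 1.63 for 8 fat genes, where the other 7 arrays reached at most -0.28, -0.17 and 0.10. The plot of differences shows every member with and without this array, and the text gives the value without it for those discussed with it.

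Among the 33 cardiac muscle genes, 17 had a mean signal above the median of all genes (5.78) and 16 below it. Most of the 33 had lower signal in the libraries labelled Fgf10+/-. Of the 33 genes, 29 had a lower mean there, against 50.2% of all genes, with a median log2 difference of -0.73, against -0.00 over all 20842 genes. The 4 with a higher mean were Gja5, Gata4, Irx4 and Hey2. For 11 of the 33 the groups did not overlap with Fgf10+/- below wild type, against 4.4% of all genes, and 0 lay above, against 2.99%. In the limma fit over all 20842 genes 0% passed an adjusted p of 0.05, and 6.29% were lower at an unadjusted p under 0.05. Since the genes were selected on this contrast, nothing is read from these shares.

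**Figure D1:**
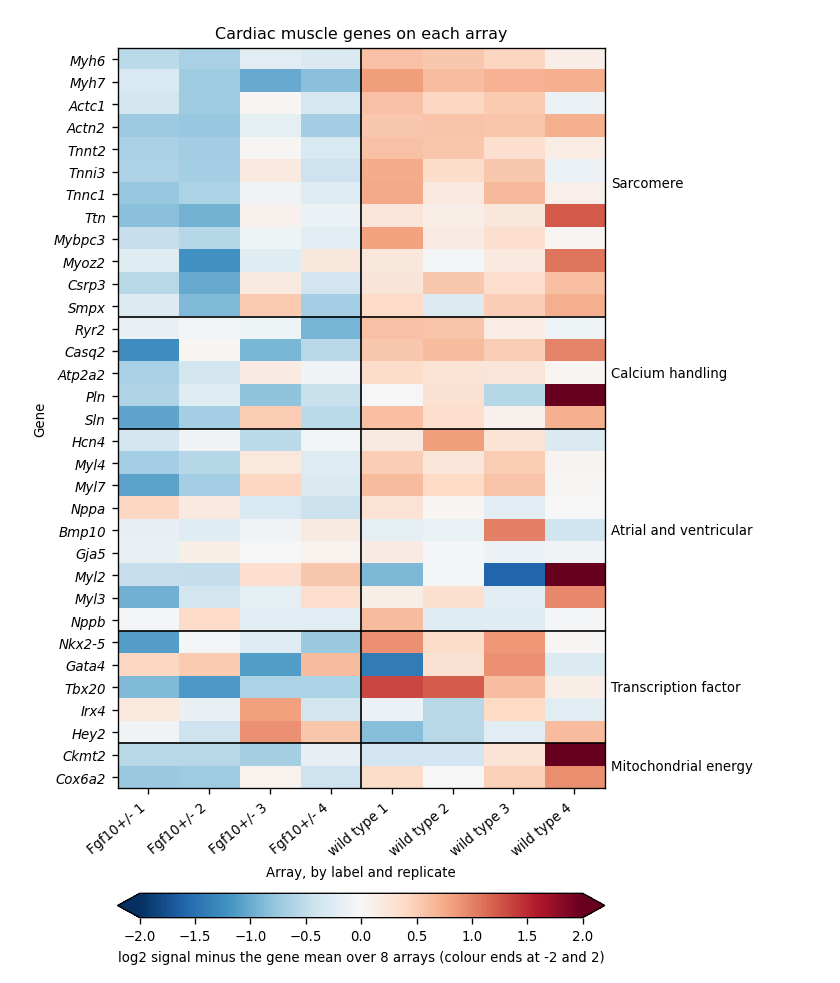
Log2 signal of the 33 cardiac muscle genes (rows, by role) on each of the 8 arrays (columns, Fgf10+/- left of wild type), as the deviation from each gene's mean over the arrays. Sarcomere genes are blue in Fgf10+/- replicates 1 and 2, mostly paler or red in replicate 3 and mostly red in wild type. Myh7 is an exception and is bluest in Fgf10+/- replicate 3. Pln, Myl2 and Ckmt2 are red mainly in wild-type replicate 4.

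In the sarcomere group all 12 genes had a lower mean in the libraries labelled Fgf10+/-, with a median of -0.83 and a range from -1.44 to -0.66, and 8 did not overlap, against 4.4% of all genes. Myh6 encodes the fast alpha myosin heavy chain, the main motor of atrial muscle and of the adult mouse heart. Its log2 signal was 12.03, 11.93, 12.37 and 12.29 in Fgf10+/- replicates 1 to 4, against 13.16, 13.11, 13.00 and 12.71 in wild-type replicates 1 to 4. Every Fgf10+/- array lay below every wild-type array, and the nearest 2 were Fgf10+/- replicate 3 and wild-type replicate 4. The difference was -0.84 (SE 0.15), a signal 44.1% lower on the linear scale. Without wild-type replicate 4 it was -0.93. A dimmer feature of the gene differed by -0.87, with overlap.

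Myh7 encodes the slow beta myosin heavy chain, made by the fetal ventricle and by slow skeletal fibres. Its values were 9.57, 9.16, 8.87 and 9.04 in Fgf10+/- and 10.72, 10.49, 10.57 and 10.61 in wild-type replicates 1 to 4. The gap between the groups was wide, and in contrast to most members replicate 3 was the lowest Fgf10+/- array. The difference of -1.44 (SE 0.16) left 63.1% less signal and was -1.43 without wild-type replicate 4. The mRNAs of Myh6 and Myh7 are closely similar, and binding of one to the other's feature was not tested.

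The 3 troponin genes differed by -0.86 to -0.76. Tnnt2, which ties troponin to tropomyosin, averaged 9.83 ± 0.33 in Fgf10+/- and 10.65 ± 0.20 in wild-type libraries (SD, n = 4 each), without overlap. Tnnc1, the calcium-binding subunit, averaged 6.51 ± 0.32 in Fgf10+/- and 7.36 ± 0.32 in wild type, also without overlap. Tnni3, the inhibitory subunit of cardiac muscle, read 7.63, 7.57, 8.43 and 7.83 in Fgf10+/- and 8.98, 8.62, 8.78 and 8.13 in wild type. Its groups crossed at one place, where Fgf10+/- replicate 3 exceeded wild-type replicate 4. The same crossing parted Actc1, the cardiac alpha-actin of the thin filament, at 11.43, 11.09, 11.82 and 11.45 in Fgf10+/- and 12.38, 12.21, 12.32 and 11.69 in wild type. Mybpc3, which braces the myosin filament, did not overlap and differed by -0.68 (SE 0.19). Without wild-type replicate 4 the differences were -0.93 for Tnni3, -0.85 for Actc1 and -0.78 for Mybpc3, each larger than with it.

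Genes of the Z-disc and of the elastic filament went the other way on that array. Actn2, the alpha-actinin that anchors actin at the Z-disc, read 5.71, 5.67, 6.25 and 5.74 in Fgf10+/- and 6.98, 7.00, 7.00 and 7.14 in wild type. The groups were far apart on this feature, with a difference of -1.19 (SE 0.15), while a feature near the floor differed by -0.22, so the mean of both was -0.71. Ttn, the giant spring that spans the sarcomere, read 6.48, 6.36, 7.40 and 7.19 in Fgf10+/- and 7.55, 7.45, 7.54 and 8.54 in wild type. Fgf10+/- replicates 3 and 4 came close to 3 of the wild-type arrays, and the difference was -0.91, or -0.66 without wild-type replicate 4. Of its 4 features 3 had a lower mean. Csrp3, a mechanosensor of the Z-disc, differed by -0.87 without overlap. Smpx (-0.66) and Myoz2 (-0.73), small proteins of the costamere and Z-disc, overlapped, and without that array they were at -0.53 and -0.49.

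**Figure D2:**
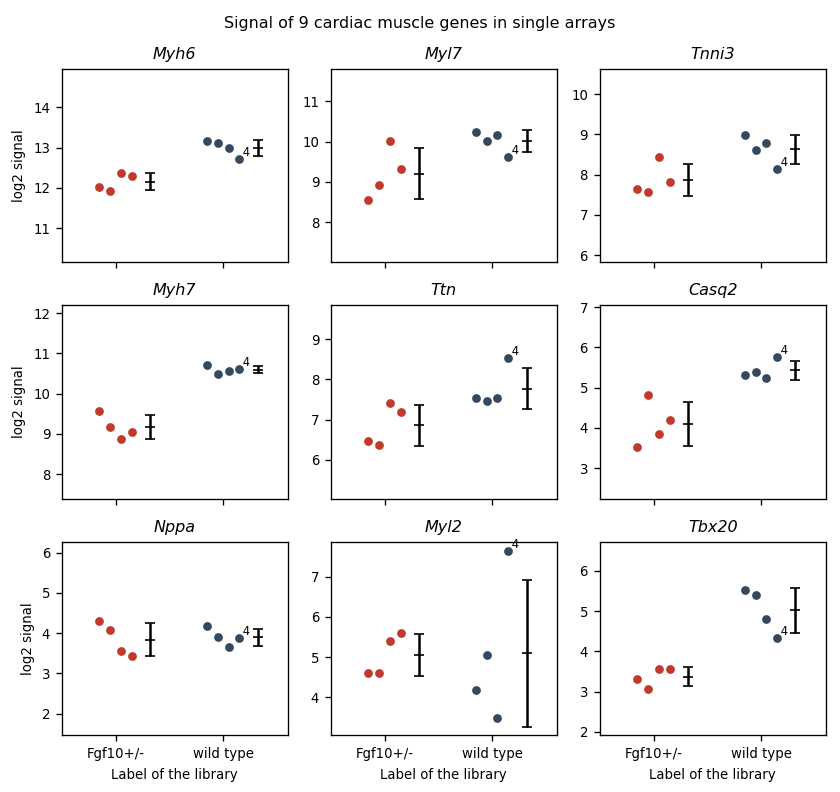
Log2 signal of 9 cardiac muscle genes on single arrays (points, replicates 1 to 4 from left to right within each label; bars, mean and SD, n = 4), with Fgf10+/- left of wild type and every panel spanning the same number of log2 units. Wild-type replicate 4 is numbered: it is the lowest wild-type point for Myh6, Myl7, Tnni3 and Tbx20 and the highest for Ttn, Casq2 and Myl2.

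Calcium handling genes were lower in mean as well, 5 of 5, with a median of -0.88. Of these Casq2 alone did not overlap, against 4.4% of all genes. Casq2, the calcium store protein of the cardiac sarcoplasmic reticulum, read 3.52, 4.81, 3.85 and 4.20 in Fgf10+/- and 5.30, 5.40, 5.25 and 5.76 in wild type. Every wild-type array was above the Fgf10+/- arrays. The gene's mean, however, lay below that of the median gene (5.78), where differences may be compressed, which was not measured. Its difference was -1.33 (SE 0.27), or -1.22 without wild-type replicate 4. Sln, the sarcolipin of atrial muscle, read 7.99, 8.37, 9.55 and 8.51 in Fgf10+/- and 9.65, 9.40, 9.14 and 9.76 in wild type. Here Fgf10+/- replicate 3 stood among the wild-type arrays, and the difference was -0.88, or -1.20 without it.

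Ryr2, the calcium release channel, differed by -0.61, or -0.41 without Fgf10+/- replicate 4. Atp2a2, which encodes SERCA2, differed by -0.46. Atp2a2 is also active outside muscle, and its other feature differed by -0.04. Pln, phospholamban, read 3.55, 3.92, 3.35 and 3.72 in Fgf10+/- and 4.17, 4.47, 3.59 and 6.51 in wild type. Most of its difference of -1.05 came with 1 library: without wild-type replicate 4 it was -0.44. The mitochondrial genes behaved in part alike. Ckmt2, the creatine kinase of striated muscle mitochondria, had 6.16 in wild-type replicate 4 and between 3.07 and 4.00 on the other 7 arrays, so its difference of -0.96 was -0.32 without that array. Cox6a2, the heart and muscle isoform of a cytochrome oxidase subunit, averaged 8.46 ± 0.38 in Fgf10+/- and 9.36 ± 0.38 in wild type (SD, n = 4 each) and differed by -0.89, or -0.73 without that array.

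Of the 9 genes that mark atrial or ventricular muscle or the pacemaker, 8 had a lower mean in Fgf10+/-, with a median of -0.15. That median was -0.49 without wild-type replicate 3 and -0.31 without replicate 4. For 0 of the 9 were the groups without overlap, against 4.4% of all genes that were lower without overlap. Neither the atrial nor the ventricular genes behaved as one: the light chains Myl7, Myl4 and Myl3 were bright, and the peptides of both chambers were not. Myl7, the atrial regulatory light chain, read 8.54, 8.93, 10.03 and 9.32 in Fgf10+/- and 10.23, 10.01, 10.17 and 9.63 in wild type. Fgf10+/- replicate 3 reached the wild-type range, and the difference was -0.81 (SE 0.31), or -1.08 without it. Myl4, the essential light chain of atrial and fetal muscle, read 11.55, 11.66, 12.45 and 11.97 in Fgf10+/- and 12.73, 12.47, 12.74 and 12.29 in wild type, with a difference of -0.65. Myl3, the ventricular and slow-muscle essential light chain, averaged 8.68 ± 0.54 in Fgf10+/- and 9.26 ± 0.50 in wild type (SD, n = 4 each), and its difference of -0.58 was -0.35 without wild-type replicate 4.

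The ventricular regulatory light chain Myl2, which slow skeletal fibres also make, was low except on the array that stood apart for skeletal muscle genes. It read 4.61, 4.60, 5.41 and 5.60 in Fgf10+/- and 4.17, 5.05, 3.49 and 7.64 in wild type. Its difference of -0.03 turned to 0.82 without wild-type replicate 4. The ventricular transcription factors Irx4 and Hey2 lay between 2.12 and 4.08 on every array, with differences of 0.25 and 0.49, and Nppb, the ventricular natriuretic peptide, between 2.06 and 2.94. These are values at or near the floor, where the median feature of an array had 3.47.

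Not every atrial gene was bright. Nppa, the atrial natriuretic peptide and a defining product of the atria, read 4.29, 4.07, 3.57 and 3.44 in Fgf10+/- and 4.17, 3.92, 3.65 and 3.87 in wild type on its brightest feature, with a difference of -0.06. All 10 features named for Nppa stayed between 1.81 and 4.41 on all arrays, and their differences ran from -1.05 to 0.44, with 6 below 0. On 1 of them the groups did not overlap, so features of 1 transcript record gave differences of both signs at the floor. Bmp10, a growth factor of atrial cardiomyocytes, lay between 2.42 and 3.84, and Hcn4, the pacemaker channel of the sinus node, between 2.07 and 3.44. Gja5, the connexin of atrial muscle and of arterial endothelium, was bright and even, at 9.20 ± 0.11 in Fgf10+/- and 9.18 ± 0.12 in wild type (SD, n = 4 each). Thus 4 of the genes by which atrial myocardium is usually known, Myh6, Myl4, Myl7 and Sln, were well above the median gene. Of these, Myl4 and Sln are among the members that skeletal muscle also uses. Nppa and Bmp10 were near the floor. The label of cardiac-type muscle thus fits the contractile genes, and goes unsupported by the natriuretic peptides and the ventricular factors, which were dim on every array. Where in the tissue the RNA came from was not tested.

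**Figure D3:**
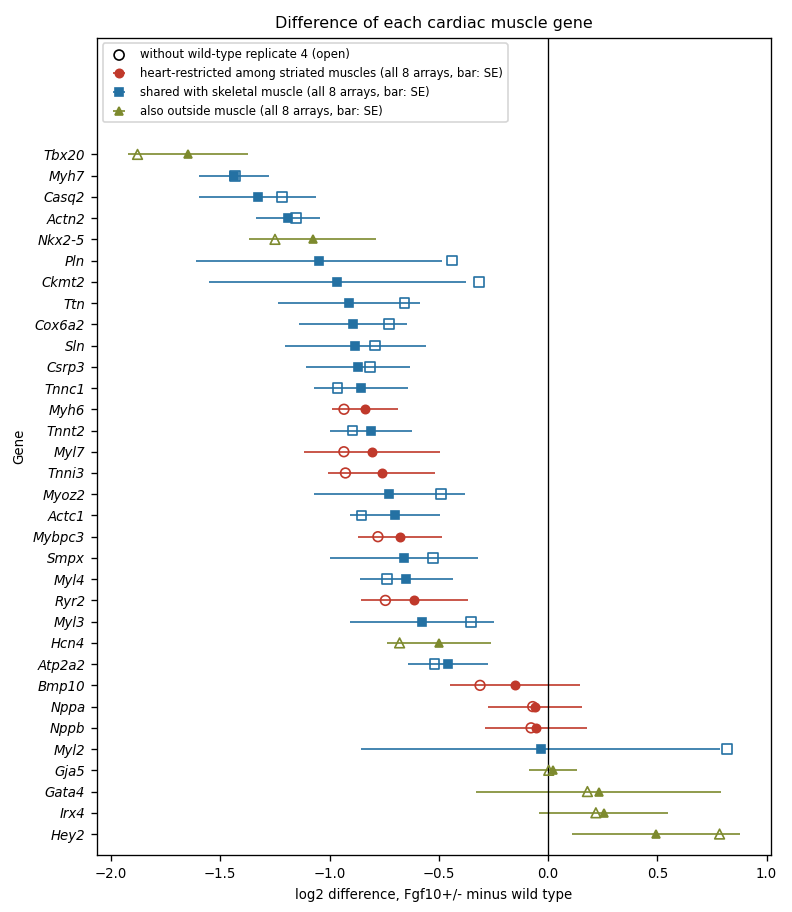
Log2 difference (Fgf10+/- minus wild type) of each cardiac muscle gene with all 8 arrays (filled, bar: limma's SE) and without wild-type replicate 4 (open), by whether the gene is restricted to heart-type cells among striated muscles, shared with skeletal muscle or active outside muscle. Pln, Ckmt2, Ttn and Myl2 shift to the right when that array is left out, whereas Myh6, Myl7, Tnni3 and Mybpc3 shift to the left.

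Cardiac transcription factors were dim as a group: 0 of 5 had a mean above that of the median gene. Of the 5, 2 had a lower mean in Fgf10+/-, against 50.2% of all genes, both without overlap, against 4.4% of all genes. The group's median of 0.23 had no stable sign (-0.20 without wild-type replicate 1). Nkx2-5, the homeodomain factor of early cardiac muscle, read 2.27, 3.34, 3.11 and 2.62 in Fgf10+/- and 4.28, 3.73, 4.24 and 3.39 in wild type. The groups were narrowly parted, and the difference was -1.08 (SE 0.29), or -1.25 without wild-type replicate 4. The gene's mean of 3.37 lay near the floor, below the median feature (3.47), so this difference is as limited as those of the other dim genes. Tbx20, a T-box factor of cardiac muscle, read 3.31, 3.06, 3.57 and 3.56 in Fgf10+/- and 5.53, 5.41, 4.81 and 4.34 in wild type. This was the lowest difference of any member, at -1.65 (SE 0.27), or -1.88 without wild-type replicate 4, but 2 further features of Tbx20, named for another transcript record, differed by 0.13 and 0.18 at the floor, and the mean over all 3 was -0.45. Gata4, a zinc finger factor of heart and of other organs, differed by 0.23 and its arrays ranged from 3.26 to 5.58 without order by label.

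**Figure D4:**
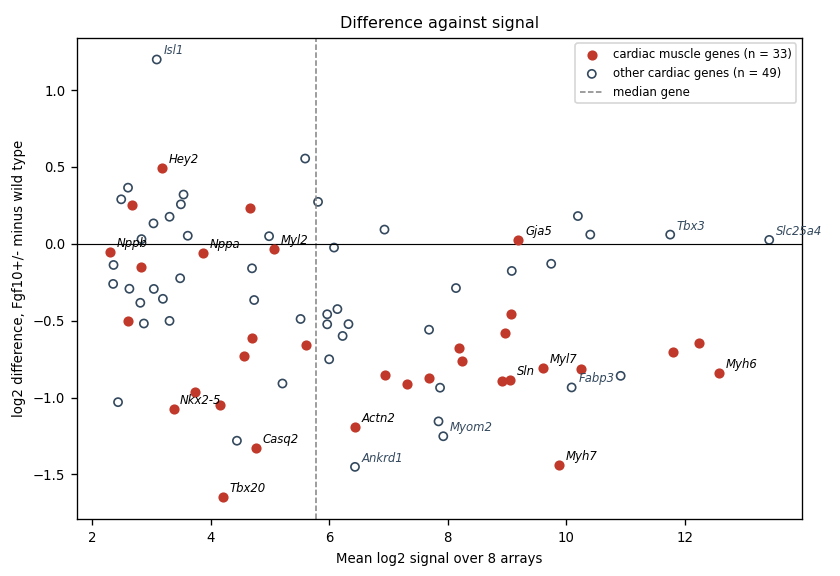
Log2 difference (Fgf10+/- minus wild type) against mean log2 signal over 8 arrays for the 33 cardiac muscle genes (filled) and 49 other cardiac genes (open), with the mean of the median gene as a dashed line. Of the 17 members to the right of the line 16 lie below 0, and Gja5 lies at 0.02.

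Dividing the genes by signal and by class made the array pattern plain. Of the 33 members 17 had a mean above that of the median gene, and 16 of these 17 had a lower mean in Fgf10+/-, with a median of -0.81. Among the 12 of these that skeletal muscle shares, the median was -0.86, or -0.80 without wild-type replicate 4. Among the 4 restricted to heart-type cells (Myh6, Myl7, Tnni3 and Mybpc3) it was -0.78, or -0.93 without that array. The mean deviation of these 4 was -0.67, -0.65, 0.08 and -0.30 in Fgf10+/- replicates 1 to 4, against 0.69, 0.37, 0.47 and 0.02 in wild-type replicates 1 to 4. So Fgf10+/- replicate 3 lay slightly above wild-type replicate 4, and the other 6 arrays were parted by label. For the 12 shared genes the deviations were -0.69, -0.68, -0.01 and -0.32 in Fgf10+/- and 0.48, 0.35, 0.37 and 0.51 in wild type, with no overlap.

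Within each label, 1 array departed from its fellows in a direction that the contrast does not fix. Fgf10+/- replicate 3 was the highest of its 4 arrays for 14 of the 17 brighter members (82.4%), against 26.8% of all genes. Wild-type replicate 4 was the lowest of its 4 arrays for all 4 brighter heart-restricted members against 28.8% of all genes. It was the highest for 6 of the 12 brighter shared ones and the lowest for 5, where it was the highest for 28.4% of all genes. The same array was the lowest wild-type array for 5 of the 7 lung epithelial genes (71.4%), so this is not particular to heart muscle. It was the lowest for 0 of 8 smooth muscle genes and 0 of 5 endothelial genes. Without wild-type replicate 4 the groups did not overlap for 17 of the 33 genes, against 7.68% of all genes. Without Fgf10+/- replicate 3 they did not overlap for 18, against 6.55%. Without both arrays, an alternative chosen after seeing the data, they did not overlap for 20, against 10.5%. The median spread of the brighter members over 4 arrays was 0.36 (SD) in Fgf10+/- and 0.27 in wild type, or 0.14 over the 3 wild-type arrays other than replicate 4.

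With each array left out in turn, the differences of 19 of the 33 members kept their sign and moved by less than 1.5 times. Those of Nppa, Bmp10, Gja5, Myl2, Nppb and Gata4 (6) changed sign. The other 8 moved further without changing sign. Among them Myoz2 was -0.45 without Fgf10+/- replicate 2, Hcn4 -0.30 without wild-type replicate 2, and Irx4 and Hey2 0.02 and 0.27 without Fgf10+/- replicate 3. The rest of the 8 are Ryr2, Pln, Ckmt2 and Myl3, whose values are given above.

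**Figure D5:**
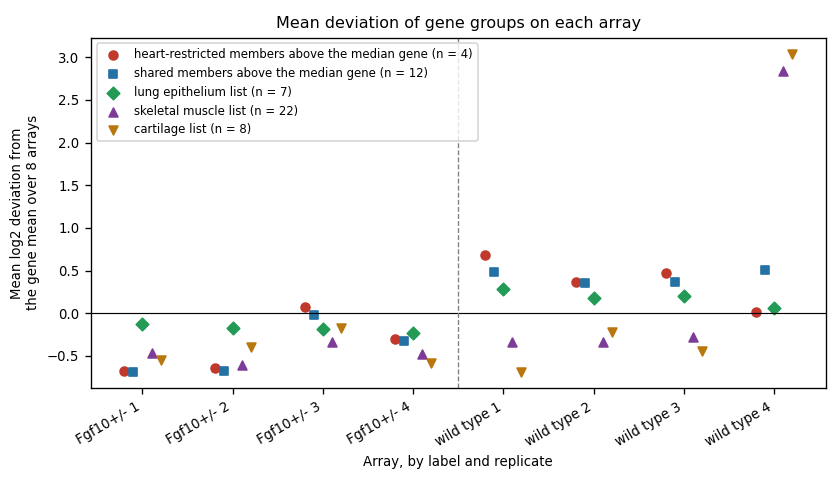
Mean log2 deviation from the gene mean over 8 arrays (vertical axis) on each array (horizontal axis, Fgf10+/- left of wild type) for 4 heart-restricted and 12 shared members above the median gene and for 3 marker lists. The skeletal muscle and cartilage lists reach 2.84 and 3.04 in wild-type replicate 4, where the heart-restricted members are at 0.02.

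Markers of other cells were measured beside these genes, and their part in the differences was not tested. Of 22 skeletal muscle genes 19 had a lower mean in Fgf10+/-, with a median of -0.99, or -0.06 without wild-type replicate 4. For 4 of the 22 the groups did not overlap, all with Fgf10+/- lower (18.2%, against 4.4% of all genes). These were Myh8, Tnnt3, Casq1 and Eno3, at -0.77, -0.86, -0.89 and -0.39 without that array. Tnni2, among the brightest of the list, differed by -1.45, or -0.25 without it. The muscle regulator Myod1 lay between 2.56 and 4.14 on all arrays. Of the 3 genes listed for slow skeletal muscle, Tnni1 (-0.98) and Tnnt1 (-0.81) did not overlap, against 4.4% of all genes. Myl6b differed by 0.00, and the median of the 3, -0.81, was -0.83 without that array. Of 8 smooth muscle genes 7 had a higher mean in Fgf10+/-, and Acta2 (0.23), Actg2 (0.22) and Cnn1 (0.23) lay above wild type without overlap, against 2.99% of all genes. Their median was 0.08, or 0.17 without wild-type replicate 4, and Tagln differed by 0.07. Endothelial genes such as Vwf (0.22), Kdr (0.12) and Cdh5 (0.01) had a median of 0.01 over 5. Of the 7 lung epithelial genes Sftpc and Scgb1a1 lay at the top of the scale, where no direction can be read. The other 5 had lower means in Fgf10+/- without overlap, against 4.4% of all genes, with a median of -0.55, Cyp2f2 at -0.42. The epicardial and endocardial list, whose genes lung mesothelium and mesenchyme also use, did not follow the muscle genes in its mean. Its deviation was 0.70, 0.14, -0.78 and 0.04 in Fgf10+/- and -0.03, 0.31, -0.23 and -0.14 in wild type. Fgf10+/- replicate 3, the highest of its label for heart muscle, was the lowest there. The list was not uniform: 4 of its 6 genes had a higher mean in Fgf10+/-, among them Tcf21 (0.21). Npr3 (-0.62) and Nfatc1 (-0.36) had lower means, with overlap, and were at -0.89 and -0.66 without wild-type replicate 4.

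Of 53 other genes of cardiac muscle listed beside the members, 49 were named on the array, and 32 had a lower mean in Fgf10+/- and 17 a higher one. Their median was -0.29. For 7 of the 49 the groups did not overlap, all with Fgf10+/- lower (14.3%, against 4.4% of all genes). In the limma fit over all genes 0 of the 49 passed, and 14 had an unadjusted p under 0.05, all lower (against 6.29% of all genes called lower). This list too was chosen with earlier results of these data known. It is no independent check on the members, and nothing is read from these shares. The 5 brighter ones without overlap were structural or metabolic. Myom2, a myosin-binding protein of the M-band, averaged 7.30 ± 0.45 in Fgf10+/- and 8.55 ± 0.22 in wild type (SD, n = 4 each), a difference of -1.25 (limma adjusted p = 0.155). Fabp3, the heart fatty acid binding protein, differed by -0.93 (adjusted p = 0.229), Tpm1, the tropomyosin that troponin shifts, by -0.86 (adjusted p = 0.199, or a difference of -0.43 over its 5 features), Srl, a calcium-binding protein of the sarcoplasmic reticulum, by -0.75 (adjusted p = 0.152), and Myom1, another M-band protein, by -0.46 (adjusted p = 0.394). Of the 17 with a higher mean 6 were brighter than the median gene. Among these Synpo2l (0.18), a protein of the Z-disc, Cmya5 (0.27, or -0.06 over its 2 features), a protein of the costamere, and Myocd (0.09), a coactivator of SRF in cardiac and smooth muscle, are muscle genes. The other 3 were the T-box genes Tbx5 (0.06) and Tbx3 (0.06), which lung mesenchyme also uses, and the mitochondrial carrier Slc25a4 (0.03).

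Some brighter genes on neither cardiac list had profiles over the 8 arrays nearer to the cardiac one than any of the other cardiac genes. The mean deviation of Myh6, Myl7, Nppa, Tnni3, Tnnt2 and Mybpc3 was compared with that of each of 10404 brighter genes outside the members by root mean square distance, a description that follows the group difference as well as the spread within groups. Nppa, near the floor with a difference of -0.06, is part of this mean. A gene whose difference is larger than that of the mean also lies further away. How the ranks depend on either was not tested. The 8 nearest were Casc1 (0.098), Aldh1a7 (0.103), Stk33 (0.108), Dnah11 (0.111), Stimate (0.116), Nr1d2 (0.116), Gm5914 (0.124) and Btg2 (0.124). Dnah11 encodes a dynein of motile cilia, Aldh1a7 an aldehyde dehydrogenase and Nr1d2 a repressor of the circadian clock. Of the other cardiac genes the nearest were Rbm24, an RNA-binding regulator of muscle splicing, at rank 50 (0.173), Srl at rank 89 and Fabp3 at rank 176. All of these had lower means in Fgf10+/-, Dnah11 with 5.81 ± 0.24 in Fgf10+/- and 6.52 ± 0.22 in wild type, and Nr1d2 with 6.86 ± 0.16 in Fgf10+/- and 7.49 ± 0.14 in wild type (SD, n = 4 each).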

How the data were processed

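Per the labels' protocols, lung RNA was amplified with a low-input Agilent kit, and Cy3 was the dye. The log2 signals were deposited by the authors, for 62976 features, with the scale read from the values (1.51 to 15.99). They had been quantile normalized, as the values show: sorted values differed by at most 0.0042 between arrays. The submitters' processing notes name limma. No source used here gives the background correction or the handling of dim and saturated spots.

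Features were named from the platform annotation, and symbols were updated by accession (GRCm38.p6 gene table, 29050 matched, 2933 changed). After 40 features with a blank were left out, 31425 stood for 20842 genes, each by its feature of highest mean. Of the members 7 had several features and 26 had 1. Groups were fitted with limma 3.58.1 in R 4.3.3 (group only, two-sided, Benjamini-Hochberg, threshold 0.05), and SEs are its moderated ones. On data simulated with the spread of these 20842 genes it made 130 calls, of which 8 were false. They held 38 of the 100 genes that had been shifted by 1 on the log2 scale and 84 of the 100 shifted by 2. The number of arrays limits the precision.

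The members and lists were chosen with earlier results of these data known. By rule, the genes named were all members, Fgf10, and the other cardiac genes above the median gene whose groups did not overlap. To these were added the 8 genes of nearest profile and the brightest of each list. For the fat and cartilage lists only mean deviations are given, and no gene is named. Further genes, such as Myod1, Casq1, Rbm24 and Tbx5, were named outside this rule. Alternatives changed the features, scaling, filter on dim genes, variance model, array weights, replicate block and replicates. Slide and scan date were not used here. Figures were drawn with matplotlib 3.10.9.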

Additional observations from a re-analysis of the deposited data

Results flagged for a closer look

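Single arrays far from the 3 others of their label were looked for with Dixon's ratio (the gap to the nearest array over the whole range, at its 95% critical value), which chance alone passes in about 1 of 20 groups. Among the 33 cardiac muscle genes, 5 of 66 groups of 4 arrays passed it. Actn2 had an array apart in both labels: Fgf10+/- replicate 3 was high at 6.25, and wild-type replicate 4 was high at 7.14. Ttn was high in wild-type replicate 4, at 8.54. Ryr2 was low in Fgf10+/- replicate 4, at 3.78, and Gata4 was low in Fgf10+/- replicate 3, at 3.55.

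Of the mean deviations of gene groups, 5 of 24 passed it. The 8 heart-restricted members stood at -0.05 in Fgf10+/- replicate 3, above the rest of that label, and the 18 members shared with skeletal muscle at 0.90 in wild-type replicate 4. In the same wild-type array the skeletal muscle list was at 2.84 and the cartilage list at 3.04. The fat list was at -0.07 in Fgf10+/- replicate 1, above the other 3 arrays of its label.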

How the results depend on the processing

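The results that depended on the processing were mainly counts of calls and values that 1 array carried. With all genes and group alone 0 genes passed in limma, but 38 passed with genes below the 25th percentile of signal left out and 288 with genes below the median left out. A variance trend with robust settings gave 414, and array weights gave 3. With genes below the median left out, the other cardiac genes had 3 calls of 23 (Myom2, Srl and Tpm1), against 288 of 10421 genes. With the trend they had 1 of 49 (Myom2), against 414 of 20842. With the replicate block 0 genes passed and the members' median stayed at -0.73. Same-numbered arrays deviated together only weakly (correlations from 0.0178 to 0.113). The nearest wild-type array had the same number for replicates 1 and 4, and was replicate 4 for replicates 2 and 3. Since litters and batches are not known here, these correlations cannot decide whether the numbers pair the samples.

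With each replicate left out in turn, between 0 and 1 genes passed, and between 11 and 18 members did not overlap. The count of 18 was without Fgf10+/- replicate 3, against 6.55% of all genes. The members' median ran from -0.90 (without Fgf10+/- replicate 3) to -0.64 (without wild-type replicate 1). Without both wild-type replicate 4 and Fgf10+/- replicate 3, an alternative chosen after seeing the data, 20 members did not overlap, against 10.5% of all genes. With genes below the median left out, 16 of the 17 members that remained had a lower mean and the median of the other cardiac genes was -0.46. The median of the 5 transcription factors, 0.23, had no stable sign: it was -0.42 with the dimmest genes left out, -0.0141 without both of those arrays, and between -0.20 and 0.43 with each replicate left out. With all features of a gene averaged, the differences of Actn2, Tbx20 and Gja5 were -0.71, -0.45 and 0.22, and 8 members did not overlap. The share of all genes without overlap was not counted in that setting. Signals near the floor limit Nppa, Nppb, Bmp10, Hcn4, Nkx2-5, Irx4 and Hey2, since differences there may be compressed, which was not measured. The cause of the changes between settings was not tested.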

Other observations

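Ankrd1, a stress-responsive ankyrin repeat protein of cardiac muscle, lies outside the rule for named genes and was picked out after its values were seen. It read 6.37, 5.29, 5.70 and 5.47 in the libraries labelled Fgf10+/- and 7.32, 7.93, 7.67 and 5.72 in those labelled wild type. Only wild-type replicate 4 lay within the Fgf10+/- range. The difference of -1.45 did not pass (limma adjusted p = 0.316), and without that array it was -1.93.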
